A study of Homo sapiens with 4 samples.

Results

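Transcripts of the actin, myosin, keratin and tubulin cytoskeleton were followed in NCCIT human embryonal carcinoma (hEC) cells in which OCT4, NANOG or SOX2 had been silenced. The members were chosen by symbol. They came from rows of the study's own table of differentially expressed genes. The rows used here cover the OCT4 and NANOG changes in large part and none of the SOX2 lists. Every probe in these rows was taken if its symbol belonged to a chosen family. The families were actin, actinin, myosin, tropomyosin, troponin, calponin, caldesmon, keratin, tubulin, PDLIM, FHL and filamin. Vinculin, zyxin, Arp2/3, capping or cyclase-associated protein, lamin A, talin, spectrin and EPB41 were also included. The symbol patterns do not take in every gene of these families. Symbols such as ACTA1, ACTA2, ACTC and TUBE1 were named in the same table rows and are not members, and the rule also left out 1 keratin. This gave 42 probes of 40 genes, among 2985 named probes in the table rows used here and 47293 probes on the array. Because that table was drawn up from differences between these same knock-downs and mock, the differences from mock given here describe the members and carry no test.

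NCCIT is an established line of pluripotent cells from a human germ cell tumour. Mock cells received the transfection reagent alone, and the knock-down cells received the same reagent with esiRNA against OCT4, NANOG or SOX2. esiRNAs are pools of short interfering RNAs cut by an RNase from a long double-stranded RNA; all groups come from this single line. All 4 groups are recorded as harvested on day 2.5, and each was hybridised to 3 Illumina BeadChip arrays labelled as biological replicates. The paper's methods name a slightly earlier day for the deposited arrays, and the difference was not resolved here. The number of arrays limits the precision of every value below. Values are normalised log2 intensities, so a difference of 1 is a doubling of signal.

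The cytoskeleton consists of actin filaments, intermediate filaments and microtubules. Actin filaments are wrapped by tropomyosin, caldesmon and calponin, pulled by myosin, branched by the Arp2/3 complex and anchored at focal adhesions through talin, vinculin, zyxin and LIM-domain proteins. Keratins are the intermediate filaments of epithelia. Spectrin and the EPB41 proteins form the mesh beneath the plasma membrane. Many contractile genes are known targets of serum response factor, which binds a promoter element called the CArG box.

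The knock-downs were first checked on the arrays. The POU5F1 probe, which reports OCT4 mRNA, averaged 9.26 ± 0.13 in mock and 5.05 ± 0.30 with OCT4 silenced (SD, n = 3 arrays, as for all means below). The NANOG probe averaged 8.42 ± 0.09 in mock and 6.57 ± 0.08 with NANOG silenced. With SOX2 silenced, POU5F1 averaged 4.93 ± 0.10 and NANOG 4.80 ± 0.21. No probe was named SOX2 in the table rows used here, so that label was not checked here against its own target. The paper reports SOX2 as below detection on its arrays and measured it by real-time PCR and Western blot. Of 10 embryonal carcinoma markers, 8 had named probes. A marker was named only if the study's table listed it as changed, so the marker counts are a description and no check. All 9 probes of these were at least 1.5-fold lower than mock with OCT4 silenced, 8 with SOX2 silenced and 6 with NANOG silenced. Over all tested probes, 10.8%, 10.5% and 4.38% were at least 1.5-fold lower in these knock-downs, in the same order. Of 15 markers of blood, endothelium, endoderm and trophoblast, only the endothelial VWF was named. The others could not be read, which does not show that they were absent. VWF averaged 4.86 ± 0.35 in mock, below background, 6.60 ± 0.05 with OCT4 silenced, 6.35 ± 0.03 with SOX2 silenced and 5.03 ± 0.28 with NANOG silenced. The part that these markers had in the cytoskeleton values was not tested, and in whole cultures fewer cells of a type and less RNA per cell cannot be told apart. Between 11196 and 12858 probes were detected per array, and arrays of the same group correlated at 0.992 to 0.997 across probes.

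The promoters were read for CArG boxes because the actin, calponin, tropomyosin and LIM genes of this set are classic settings of that element. RefSeq's GRCh38.p14 promoter windows were available for 31 of the 40 genes, and the 250 bases before the start were searched on both strands. A CArG box lay in 4 of the 31 windows (12.9%), against 407 of 35116 windows over all genes (1.16%). The windows with a box are shown with it in capitals. The ACTG2 window (chr2:73892758-73893007, plus strand) holds 2 boxes, 110 and 73 bases before the start. The CNN2 box (chr19:1026358-1026607, plus strand) lies 89 bases before the start, the FHL2 box (chr2:105438514-105438763, minus strand) 101 and the TPM4 box (chr19:16067288-16067537, plus strand) 173.
ACTG2: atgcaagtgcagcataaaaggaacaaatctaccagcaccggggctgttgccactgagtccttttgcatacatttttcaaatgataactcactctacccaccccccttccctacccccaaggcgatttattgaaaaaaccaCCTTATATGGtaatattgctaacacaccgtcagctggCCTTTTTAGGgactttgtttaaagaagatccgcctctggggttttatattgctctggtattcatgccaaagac
CNN2: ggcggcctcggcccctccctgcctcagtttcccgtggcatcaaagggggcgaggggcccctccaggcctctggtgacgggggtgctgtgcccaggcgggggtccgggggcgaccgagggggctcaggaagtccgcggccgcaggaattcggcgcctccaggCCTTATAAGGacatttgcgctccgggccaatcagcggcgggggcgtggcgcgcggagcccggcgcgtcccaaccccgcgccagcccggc
FHL2: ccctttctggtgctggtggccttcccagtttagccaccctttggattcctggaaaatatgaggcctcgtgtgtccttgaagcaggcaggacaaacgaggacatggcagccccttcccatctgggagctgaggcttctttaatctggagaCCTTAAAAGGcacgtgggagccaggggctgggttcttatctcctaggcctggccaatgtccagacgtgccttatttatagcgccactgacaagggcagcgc
TPM4: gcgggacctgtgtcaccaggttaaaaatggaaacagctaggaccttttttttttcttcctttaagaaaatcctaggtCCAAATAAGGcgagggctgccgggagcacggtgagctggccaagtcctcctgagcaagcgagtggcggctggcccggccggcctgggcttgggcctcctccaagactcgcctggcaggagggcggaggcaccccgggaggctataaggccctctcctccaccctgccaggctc
The MCAT element CATTCC, on either strand, was in 4 windows (12.9%), those of CALD1, MYH9, SPTB and VCL, against 11.9% of all windows. The AP-1 element TGACTCA, on either strand, was in none, against 4.2%. A match describes the letters of the window and does not show that a factor binds there.

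With OCT4 silenced, 33 of the 42 probes were at least 1.5-fold higher than mock and 4 were at least 1.5-fold lower. Over all 12374 probes tested, 14% were at least 1.5-fold higher and 10.8% lower. The median difference of the members was 1.14 on the log2 scale, with a range from -1.66 to 4.39, against -0.03 over all tested probes. With SOX2 silenced, 34 probes were at least 1.5-fold higher and 4 lower, against 13.6% and 10.5% of all tested probes, and the median difference was 1.12. With NANOG silenced, 5 of the 42 members were at least 1.5-fold higher and 4 lower, and the median difference was 0.20. Both are larger shares than the 5.29% and 4.38% of all tested probes. In 35 members all 3 arrays lay above all mock arrays with OCT4 silenced, and the same count was found with SOX2 silenced. With NANOG silenced it was 20 members, while 8 lay wholly below mock and 14 overlapped with it. The share of all tested probes with such a separation was not computed, so the separation counts only describe the members. These counts use the measured means, also for the 7 members above background on no mock array. Every lower bound given in this report, written as at least so many fold, holds for the main background correction only. With these members at the lower bound of their fold, the knock-down mean over the lowest signal of any detected probe on each mock array, 30 members were at least 1.5-fold higher with OCT4 silenced (median 1.02) and 31 with SOX2 silenced (median 1.02). The members whose bound was under 1.5-fold were FHL1, KRT17 and TNNC1 with OCT4 silenced, and KRT17, MYO1C and TNNC1 with SOX2 silenced, and the counts by role include them. Of all tested probes, 26.7% were called higher and 29.8% lower with OCT4 silenced by limma at an adjusted p under 0.05, 15.3% and 15.2% with NANOG silenced, and 25.9% and 29.2% with SOX2 silenced. All these comparisons share the mock arrays, and the rule chose members for being changed with OCT4 or NANOG silenced, so the counts are not evidence of a shift of the cytoskeleton as a whole.

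**Figure D1:**
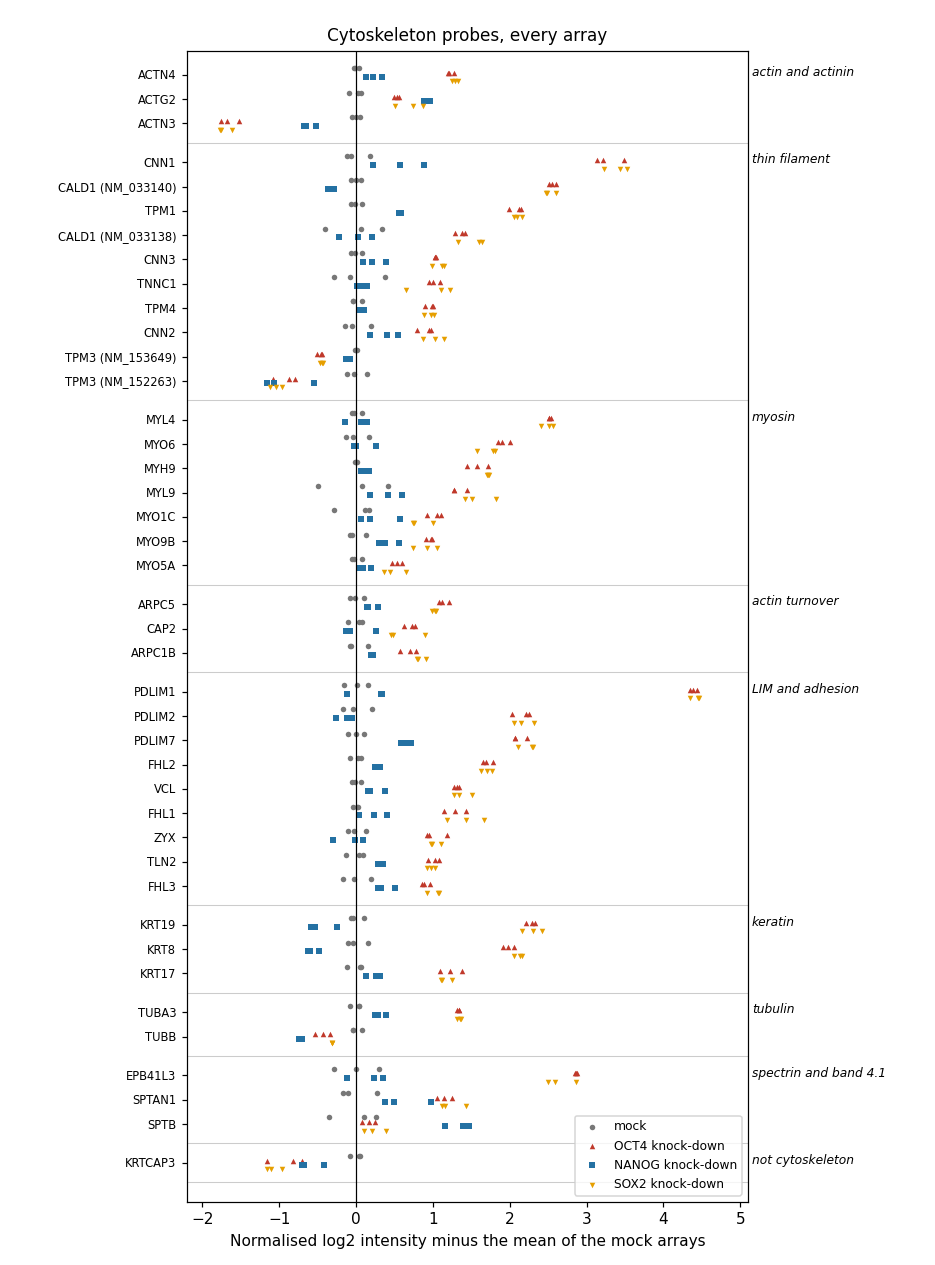
Normalised log2 intensity of 41 of the 42 cytoskeleton probes on each of the 12 arrays, minus the mean of the 3 mock arrays, grouped by role. Points stand for single arrays. The OCT4 and SOX2 knock-down arrays lie together, mostly to the right of mock, with PDLIM1 farthest (4.39 and 4.42), while the NANOG knock-down arrays lie near mock except for members such as SPTB.

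The LIM-domain and focal adhesion proteins shared a direction in the OCT4 and SOX2 knock-downs. All 9 probes were at least 1.5-fold higher than mock with OCT4 silenced (median 1.31) and with SOX2 silenced (median 1.42), and 1 of 9 with NANOG silenced (median 0.24). PDLIM1, an adaptor that joins alpha-actinin to signalling proteins, had the largest difference of all members. It read 5.41, 5.72 and 5.58 on the mock arrays, 9.96, 10.01 and 9.91 with OCT4 silenced, 10.03, 9.91 and 10.02 with SOX2 silenced, and 5.45, 5.90 and 5.89 with NANOG silenced. The OCT4 and SOX2 knock-down arrays stood far above mock, by 20.9-fold and 21.3-fold, and the NANOG knock-down arrays overlapped with mock. PDLIM1 was above background on 2 of the 3 mock arrays, and the fold depended on the background correction. Its log2 differences of 4.39 and 4.42 were 3.36 and 3.39 in the alternative called normexp with offset 50. That alternative adds a larger constant and fits the background without the detection scores. In the authors' deposited group means they were 4.94 and 5.02.

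PDLIM2, another PDZ and LIM adaptor of the actin cytoskeleton, read 7.25, 7.39 and 7.64 in mock, 9.46, 9.67 and 9.64 with OCT4 silenced, and 9.57, 9.48 and 9.74 with SOX2 silenced. Its NANOG knock-down values of 7.31, 7.16 and 7.37 overlapped with mock. In this group 6 of the 9 probes had all 3 NANOG knock-down arrays above all mock arrays. FHL1 was among them, although below background on every array of both groups, and the share of all tested probes was not computed. PDLIM7, or enigma, was the member of this group at least 1.5-fold above mock with NANOG silenced. It read 9.55, 9.34 and 9.44 in mock and 10.03, 10.16 and 10.09 with NANOG silenced, a 1.57-fold difference. With OCT4 silenced it read 11.52, 11.66 and 11.51, and with SOX2 silenced 11.55, 11.73 and 11.74, more than 4-fold above mock in both. FHL1, a LIM-only protein of muscle, was above background on no mock array and at least 1.43-fold higher with OCT4 silenced. The other 5 members of the group, the LIM-only proteins FHL2 and FHL3 and the focal adhesion proteins vinculin (VCL), zyxin (ZYX) and talin 2 (TLN2), lay between 0.91 (FHL3) and 1.71 (FHL2) above mock with OCT4 silenced. FHL2, whose promoter window is printed above, averaged 8.85 ± 0.07 in mock, 10.56 ± 0.07 with OCT4 silenced and 10.55 ± 0.07 with SOX2 silenced. Zyxin differed from mock by 1.02 in both of these knock-downs and by -0.07 with NANOG silenced, where its arrays overlapped with mock.

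Among the proteins of the thin filament, 8 of 10 probes were at least 1.5-fold higher than mock with OCT4 silenced and 8 with SOX2 silenced (medians 1.02 and 1.05). None was with NANOG silenced (median 0.07). Calponin 1 (CNN1), a smooth muscle protein that binds actin and restrains myosin, was above background on no mock array, where it read 4.98, 4.72 and 4.68. It read 8.0, 8.28 and 7.93 with OCT4 silenced, at least 7.0-fold higher, and 8.02, 8.22 and 8.32 with SOX2 silenced, at least 7.60-fold higher. These bounds are 2.81 and 2.93 on the log2 scale. With normexp at offset 50 the measured differences, 2.03 and 2.13, were below them. With NANOG silenced CNN1 read 5.36, 5.02 and 5.68, and 2 of these arrays were above background. The ubiquitous calponins CNN2 and CNN3 differed from mock by 0.91 and 1.03 with OCT4 silenced.

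Caldesmon (CALD1), which blocks myosin access to actin, had 2 probes, named here by the transcript each is listed under. Which transcripts each probe detects was not tested. The probe for NM_033140 read 7.04, 6.90 and 6.96 in mock, 9.52, 9.47 and 9.57 with OCT4 silenced, 9.57, 9.45 and 9.44 with SOX2 silenced, and 6.68, 6.60 and 6.63 with NANOG silenced. It thus stood 5.87-fold and 5.74-fold above mock in the OCT4 and SOX2 knock-downs and wholly below mock, by 1.26-fold, in the NANOG knock-down. The probe for NM_033138, above background on 2 of 3 mock arrays, was 1.37 and 1.52 above mock with OCT4 and SOX2 silenced and averaged the same as mock, 5.70, with NANOG silenced.

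Tropomyosins lie along the actin filament and set which other proteins can bind it, and the probes of the 3 genes went in different directions. TPM1 read 8.41, 8.37 and 8.51 in mock, 10.54, 10.57 and 10.42 with OCT4 silenced, 10.59, 10.48 and 10.52 with SOX2 silenced, and 9.02, 8.99 and 8.99 with NANOG silenced, so that every knock-down array lay above every mock array. TPM4, whose promoter window is also printed above, differed from mock by 0.97 and 0.96 with OCT4 and SOX2 silenced and by 0.07 with NANOG silenced. The TPM3 probe listed under NM_152263 went the other way in all 3 knock-downs. It read 9.41, 9.31 and 9.58 in mock, 8.35, 8.55 and 8.63 with OCT4 silenced, 8.39, 8.31 and 8.46 with SOX2 silenced, and 8.37, 8.27 and 8.89 with NANOG silenced. The second TPM3 probe, listed under NM_153649, differed from mock by -0.47, -0.45 and -0.10 in the OCT4, SOX2 and NANOG knock-downs. The probes of this gene therefore gave the same direction and different sizes, most of all with NANOG silenced. Troponin C (TNNC1), the calcium sensor of slow and cardiac muscle, was above background on no mock array and at least 1.49-fold higher with OCT4 silenced.

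Of the 7 myosin probes, 6 were at least 1.5-fold higher than mock with OCT4 silenced and 6 with SOX2 silenced (medians 1.33 and 1.58), and none was with NANOG silenced (median 0.12). MYL4, the essential light chain of atrial and embryonic muscle, was above background on no mock array, where it read 4.54, 4.51 and 4.64. It read 7.08, 7.07 and 7.10 with OCT4 silenced and 7.13, 6.97 and 7.07 with SOX2 silenced, at least 3.54-fold and 3.47-fold higher. Its NANOG knock-down values of 4.41, 4.71 and 4.63 were below background and overlapped with mock. MYO6, a motor that walks towards the minus end of actin, read 6.42, 6.72 and 6.51 in mock, 8.55, 8.45 and 8.40 with OCT4 silenced, and 8.36, 8.33 and 8.13 with SOX2 silenced. With NANOG silenced it read 6.80, 6.52 and 6.55, again overlapping with mock. The heavy chain of non-muscle myosin II, MYH9, averaged 10.81 ± 0.01 in mock and 12.39 ± 0.14 with OCT4 silenced, a 2.98-fold difference. The regulatory light chain MYL9 was 1.33 above mock with OCT4 silenced, from a mock mean of 5.61 ± 0.46 with 2 of 3 arrays above background. The unconventional myosins MYO9B and MYO5A differed from mock by 0.96 and 0.54, and MYO1C, above background on no mock array, was at least 1.53-fold higher.

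**Figure D2:**
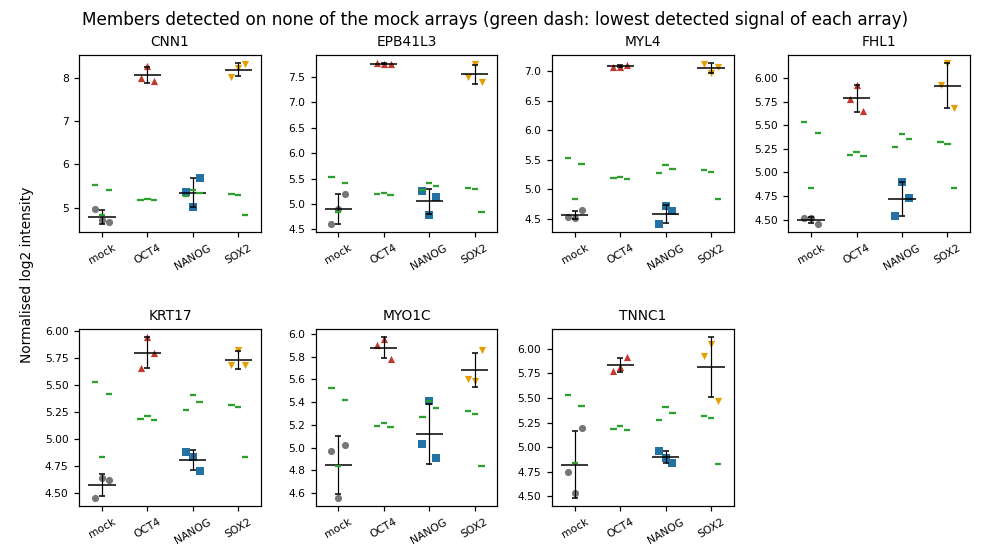
Normalised log2 intensity of the 7 members detected on none of the mock arrays, by array and group, with the mean and SD (n = 3). Green dashes mark the lowest signal of a detected probe on each array. CNN1, EPB41L3 and MYL4 lie well above the dashes in the OCT4 and SOX2 knock-downs, whereas FHL1, KRT17, MYO1C and TNNC1 lie closer to them.

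The 3 probes for actin turnover were at least 1.5-fold higher than mock in the OCT4 and SOX2 knock-downs and in none of the NANOG knock-down comparisons. ARPC5, a subunit of the Arp2/3 complex that branches actin filaments, read 10.94, 10.88 and 11.07 in mock, 12.18, 12.09 and 12.04 with OCT4 silenced, 11.95, 12.01 and 12 with SOX2 silenced, and 11.25, 11.11 and 11.12 with NANOG silenced. ARPC1B, a second subunit, read 10.01, 9.79 and 9.78 in mock, 10.43, 10.64 and 10.56 with OCT4 silenced, 10.67, 10.65 and 10.77 with SOX2 silenced, and 10.07, 10.06 and 10.05 with NANOG silenced. Both subunits thus lay above mock in every knock-down, by 0.20 or less on average with NANOG silenced. CAP2, a cyclase-associated protein that recycles actin monomers, read 5.85, 5.67 and 5.81 in mock, 6.55, 6.51 and 6.41 with OCT4 silenced, and 6.24, 6.26 and 6.67 with SOX2 silenced. Its NANOG knock-down values of 6.03, 5.65 and 5.70 overlapped with mock.

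The actin and actinin probes did not share a direction. Actinin 4 (ACTN4), a crosslinker of non-muscle actin, read 9.69, 9.63 and 9.65 in mock, 10.87, 10.93 and 10.85 with OCT4 silenced, 10.94, 10.91 and 10.98 with SOX2 silenced, and 9.78, 9.99 and 9.88 with NANOG silenced. Actinin 3 (ACTN3), known from fast muscle fibres, was lower in all knock-downs. It read 6.83, 6.87 and 6.78 in mock, 5.31, 5.14 and 5.07 with OCT4 silenced, 5.07, 5.22 and 5.06 with SOX2 silenced, and 6.18, 6.31 and 6.15 with NANOG silenced. It was above background on 1 array with OCT4 silenced and on none with SOX2 silenced, where it was at least 3.04-fold lower than mock. The smooth muscle gamma actin ACTG2, with CArG boxes in the window printed above, was the actin member with its highest mean in the NANOG knock-down. It read 6.33, 6.36 and 6.21 in mock, 7.20, 7.26 and 7.18 with NANOG silenced, 6.86, 6.79 and 6.83 with OCT4 silenced, and 7.05, 6.81 and 7.17 with SOX2 silenced. All 9 knock-down arrays of ACTG2 lay above the mock arrays, while the NANOG knock-down was not tested against the other knock-downs.

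All 3 keratins were at least 1.5-fold higher than mock with OCT4 and with SOX2 silenced (medians 1.98 and 2.12). KRT8, the type II keratin of simple epithelia, read 12.31, 12.12 and 12.06 in mock, 14.08, 14.22 and 14.14 with OCT4 silenced, 14.22, 14.30 and 14.33 with SOX2 silenced, and 11.53, 11.68 and 11.56 with NANOG silenced. KRT19, a type I keratin of simple epithelia, read 6.95, 7.12 and 6.98 in mock, 9.24, 9.35 and 9.31 with OCT4 silenced, 9.33, 9.18 and 9.43 with SOX2 silenced, and 6.43, 6.48 and 6.77 with NANOG silenced. For both genes the NANOG knock-down arrays lay wholly below mock, by 1.49-fold for KRT8 and 1.37-fold for KRT19, and the OCT4 and SOX2 knock-down arrays wholly above it. KRT17, a type I keratin of basal and injured epithelia, was above background on no mock array and on no NANOG knock-down array. It read 4.46, 4.64 and 4.62 in mock, 5.66, 5.94 and 5.80 with OCT4 silenced, 5.69, 5.82 and 5.68 with SOX2 silenced, and 4.88, 4.83 and 4.71 with NANOG silenced. KRT17 was at least 1.45-fold higher with OCT4 silenced and at least 1.38-fold higher with SOX2 silenced.

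The pair of tubulin probes split. The alpha tubulin listed as TUBA3, TUBA1A in RefSeq, read 12.03, 12.02 and 11.91 in mock, 13.30, 13.33 and 13.33 with OCT4 silenced, 13.30, 13.35 and 13.34 with SOX2 silenced, and 12.27, 12.23 and 12.37 with NANOG silenced. The beta tubulin listed as TUBB, TUBB2A in RefSeq, was lower in every knock-down. It read 13.25, 13.13 and 13.13 in mock, 12.74, 12.84 and 12.64 with OCT4 silenced, 12.86, 12.86 and 12.86 with SOX2 silenced, and 12.43, 12.47 and 12.46 with NANOG silenced. Alpha and beta tubulin form the dimers of microtubules, and both genes belong to families of closely similar sequence, so that cross-hybridisation of a probe with related tubulins was not tested.

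Of the spectrin and EPB41 genes, 3 are described. SPTB, the beta spectrin of red blood cells, entered the set through its change with NANOG silenced alone. It read 6.66, 6.59 and 6.34 with NANOG silenced, against 4.83, 5.29 and 5.45 in mock, where 1 array was above background. With OCT4 silenced it read 5.27, 5.36 and 5.44, and with SOX2 silenced 5.58, 5.40 and 5.29, both overlapping with mock. SPTAN1, the alpha spectrin of most tissues, read 7.56, 7.13 and 7.19 in mock and lay above mock in each knock-down, at 8.44, 8.54 and 8.34 with OCT4 silenced, 8.41, 8.45 and 8.73 with SOX2 silenced, and 7.66, 8.27 and 7.79 with NANOG silenced. EPB41L3, a protein that ties membrane proteins to spectrin and actin, was above background on no mock array, where it read 4.61, 4.90 and 5.20. It read 7.77, 7.75 and 7.76 with OCT4 silenced, at least 5.58-fold higher, 7.49, 7.76 and 7.40 with SOX2 silenced, at least 4.82-fold higher, and 5.25, 4.78 and 5.13 with NANOG silenced.

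**Figure D3:**
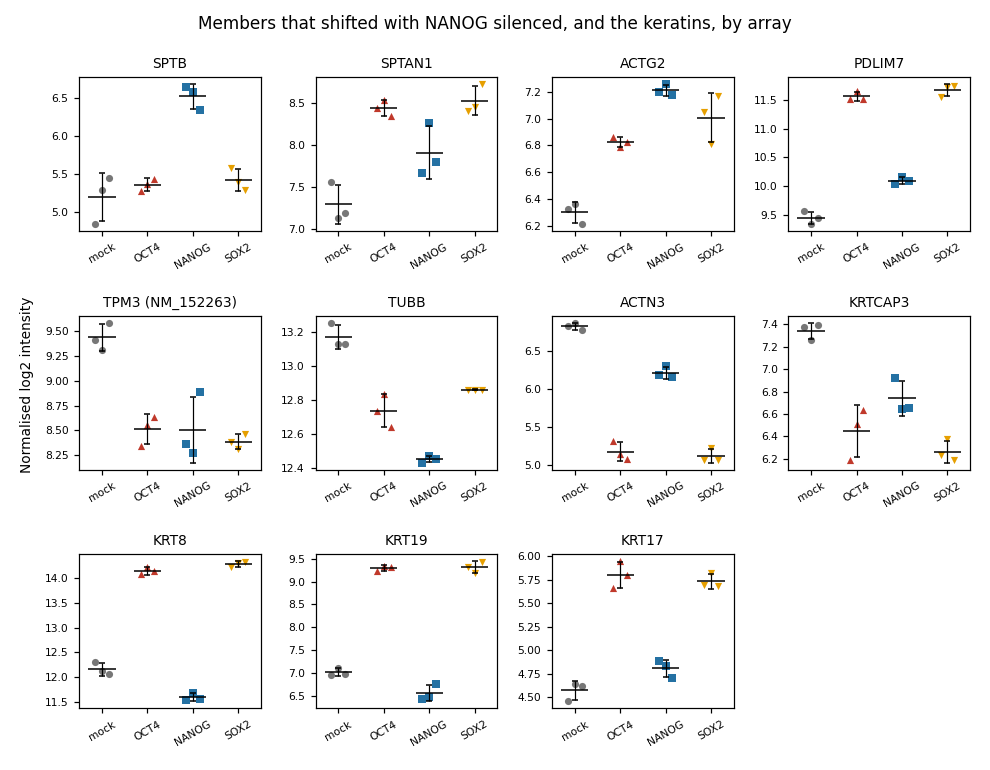
Normalised log2 intensity by array and group, with the mean and SD (n = 3), for 8 members that differed from mock by more than 0.58 with NANOG silenced and for the 3 keratins. SPTB lies above mock with NANOG silenced (6.53 against 5.19), while KRT8 lies below it (11.59 against 12.16) and above it with OCT4 silenced (14.15). The vertical axes differ between panels and do not start at 0.

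KRTCAP3 matched the keratin pattern by its symbol, although it encodes a keratinocyte-associated membrane protein and no cytoskeleton protein. It read 7.38, 7.26 and 7.39 in mock, 6.19, 6.51 and 6.64 with OCT4 silenced, 6.23, 6.37 and 6.19 with SOX2 silenced, and 6.92, 6.64 and 6.66 with NANOG silenced. All 9 knock-down arrays lay below mock.

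The study's table asked for a change of at least 1.5-fold on its own scale, and a few members lay near that limit. With OCT4 silenced the smallest differences among the listed members were -0.43 (TUBB), -0.47 (TPM3, NM_153649), 0.53 (ACTG2) and 0.54 (MYO5A), and SPTB, not listed for OCT4, had 0.17. With NANOG silenced KRT8 (-0.57) and TPM1 (0.57) were listed, while CNN1 (0.56) and SPTAN1 (0.61) were not in the NANOG rows used here. Those rows are not complete, so this does not show that the study left them out.

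OCT4 and SOX2 act as partners on many pluripotency genes, and the comparison of both knock-downs with each other asks whether the cytoskeleton genes differed between them. The rule did not use this contrast, although the arrays are among those behind the list. Genes listed for SOX2 alone were not in the rows used here and could not become members. None of the 42 members passed limma's test at an adjusted p under 0.05, and the smallest adjusted p was 0.546. None had an unadjusted p under 0.05 either. Over all 12374 tested probes the test called 0 (0%), with 1210 (9.78%) at an unadjusted p under 0.05. The differences of the members ran from -0.25 (MYL9) to 0.21 (EPB41L3), with a median of -0.01, and on 38 members the arrays of both groups overlapped. The 95% interval of the difference lay inside 1.5-fold, 0.585 on the log2 scale, for 41 of the 42 members, with a median width of 0.193 to each side. The exception was MYL9, whose interval ran from -0.68 to 0.17.

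For PDLIM1 the interval of the difference ran from -0.28 to 0.23, and for KRT8 from -0.31 to 0.04. Intervals were wider for CNN1 (-0.46 to 0.22) and EPB41L3 (-0.12 to 0.54), which were above background on no mock array. MYL4, also above background on no mock array, had a narrower interval of -0.15 to 0.21. A missed threshold does not show that both knock-downs gave the same level, but these intervals bound how far most members could differ. The arrays of both knock-downs did not overlap for MYO6 and ARPC5, which were higher with OCT4 silenced (differences of 0.19 and 0.12), and for ARPC1B and TUBB, which were higher with SOX2 silenced (differences of -0.15 and -0.12). All 4 missed the threshold, with adjusted p between 0.587 (ARPC1B) and 0.673 (ARPC5) in limma's test. The share of all tested probes without overlap between these knock-downs was not computed. The counts of overlap and separation therefore only describe the members.

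**Figure D4:**
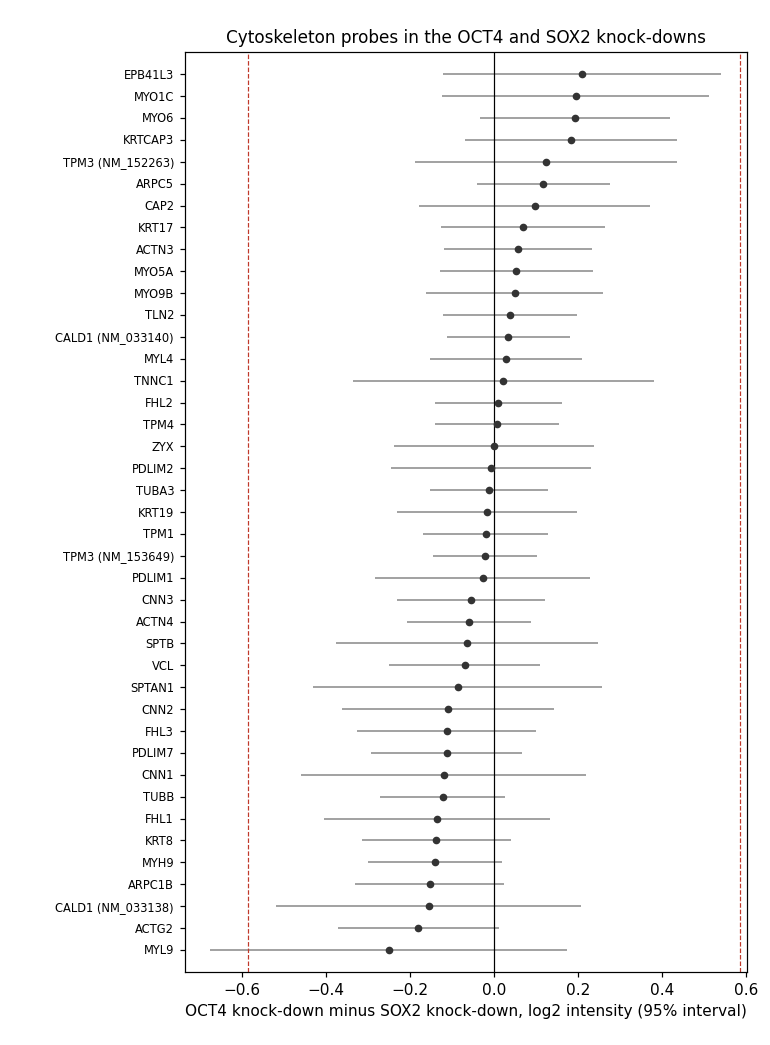
Difference in normalised log2 intensity between the OCT4 and the SOX2 knock-down for 41 of the 42 probes, with its 95% interval from the limma fit (3 arrays per group). Dashed red lines mark a 1.5-fold difference in either direction (0.585). Only the MYL9 interval crosses a dashed line.

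Other genes of the pathway were taken from lists of related genes, and could be read only where the table rows used here named them, so that they too were chosen by their change and are described without a test. Of 19 actin turnover genes, 7 were named, and 5 of these were at least 1.5-fold higher with OCT4 silenced, with the nucleation factor WASF1 highest at 1.54.

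Of 9 smooth muscle contractile symbols, 5 were named, and all 5 were at least 1.5-fold higher than mock with OCT4 and with SOX2 silenced. TAGLN, an actin-binding protein of smooth muscle, averaged 6.09 ± 0.09 in mock, 11.40 ± 0.21 with OCT4 silenced, 11.56 ± 0.22 with SOX2 silenced and 6.98 ± 0.33 with NANOG silenced. Of 14 other intermediate filament and linker symbols, 6 were named. The neural stem cell filament nestin (NES) was above mock in all knock-downs, by 2.13, 1.04 and 2.32 with OCT4, NANOG and SOX2 silenced. The neuronal filament peripherin (PRPH) was below mock in all, with differences of -1.53, -1.20 and -1.55. Of 15 microtubule-associated genes, 6 were named. With OCT4 silenced, 3 of their 6 probes were at least 1.5-fold higher than mock and 2 lower, and with SOX2 silenced 2 and 2. The microtubule-associated proteins MAP1B and DCX, both known from neurons, differed from mock by 1.07 and 0.61 with OCT4 silenced. The neuronal MAP2, above background on no mock array, averaged 4.55 ± 0.07 in mock and 5.86 ± 0.09 with OCT4 silenced. Epsilon tubulin (TUBE1), of centrosomes, differed by -0.92. The 1 named probe of the tubulin-binding protein STMN1 differed from mock by -1.24 with OCT4 silenced and -0.42 with NANOG silenced. It averaged 6.65 ± 0.12 in mock and 5.41 ± 0.12 with OCT4 silenced. The latter is close to the lowest signals of detected probes on those arrays (5.18 to 5.21). Which transcripts this probe detects was not tested. The neuronal STMN2, above background on no mock array, averaged 5.24 ± 0.19 in mock and 6.45 ± 0.17 with NANOG silenced.

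Several members had signal close to background, and the size of their difference depended on the background correction. With normexp at offset 50 the difference of the measured means of CNN1 with OCT4 silenced was 2.03 rather than 3.28, that of EPB41L3 1.73 rather than 2.86, that of MYL4 1.42 rather than 2.52, and that of ACTN3 -0.90 rather than -1.66. That of SPTB with NANOG silenced was 0.70 rather than 1.34. The lower bounds of CNN1, EPB41L3 and MYL4 with OCT4 silenced were 2.81, 2.48 and 1.82 on the log2 scale. The differences at offset 50 were smaller than these bounds, which therefore depend on the background correction too. The sign did not change in any of the 84 differences of at least 1.5-fold.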

How the data were processed

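Raw probe intensities of 12 Illumina BeadChip arrays (mock, OCT4, NANOG and SOX2 knock-down, 3 biological replicates each) were used as deposited. The authors' processing notes name BeadStudio 1.0. Each deposited raw file holds an intensity per probe, neither background-subtracted nor normalised, and a detection score, a fraction between 0 and 1. A deposited table of group means holds linear intensity values that the authors had background-subtracted and scaled by rank-invariant normalisation. It was used as an alternative only. Its group medians of listed values were 167, 146, 152 and 167 for mock, OCT4, NANOG and SOX2, and it correlated with the means computed here at 0.997 or more on the log2 scale.

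Intensities were corrected with limma 3.58.1 (R 4.3.3) by neqc, which fits the background from the detection scores, adds 16, quantile-normalises and takes log2. Probes with a detection score over 0.99 on all 3 arrays of at least 1 group were tested (12374 of 47293). A linear model over the 4 groups with moderated variances gave the contrasts, with Benjamini-Hochberg adjustment over all tested probes and calls at an adjusted p under 0.05. The fit was tested on simulated data. Where a probe was detected on no array of a group, a lower bound is given in place of a fold, while counts, medians and log2 differences use the measured means unless the text says otherwise.

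The members and gene lists were chosen with earlier results of these data known. Probe symbols came from the study's table alone, of which the rows used here cover the OCT4 and NANOG changes in large part. Values on every array are given for the pair of members of each role with the largest OCT4 difference, for all members of roles of 3 or fewer, and for members over 0.58 from mock with NANOG silenced. TPM1 was added after its values were seen. All 40 genes were matched to RefSeq, SPTB by its symbol and the others by accession. The alternatives tried were study-like processing, median scaling, and another background fit with a larger offset. Other filters, a t-test, a fold limit, a replicate block, the deposited means and leaving out each array were also tried. The values of 1 member and 1 gene list are not reported here, and the counts over all members include that member. Probes without a symbol and the BeadChip of each array were not analysed here.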

Additional observations from a re-analysis of the deposited data

How the results depend on the processing

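The 0 members called between the OCT4 and SOX2 knock-downs stayed at 0 in every alternative that tests this contrast, and leaving out each array in turn gave 0 to 0. Members at least 1.5-fold higher and lower than mock numbered 33 to 33 and 4 to 4 with OCT4 silenced, 4 to 6 and 3 to 5 with NANOG silenced, and 33 to 34 and 4 to 4 with SOX2 silenced over the left-out arrays. With NANOG silenced, normexp with offset 50 left 2 members at least 1.5-fold lower in place of 4. The number of bounds of at least 1.5-fold was 9, and 14 with the study-like processing. Over the whole array, leaving out each array gave 3014 to 3369 higher and 3293 to 3771 lower probes with OCT4 silenced (3307 and 3691 with all arrays), 1341 to 1938 and 1319 to 1941 with NANOG silenced (1899 and 1886), 2931 to 3227 and 3236 to 3627 with SOX2 silenced (3209 and 3616), and 0 to 4 and 0 to 1 between the OCT4 and SOX2 knock-downs (0 and 0). Requiring 1.5-fold as well gave 1728 and 1337, 642 and 537, and 1675 and 1301. The methods' t-test after Benjamini-Hochberg adjustment gave 841 and 923 with NANOG silenced. Between the OCT4 and SOX2 knock-downs it called 1 probe higher, the study-like processing 5 higher and 3 lower, median scaling 27 and 47, normexp with offset 50 83 and 5, and detection on all 12 arrays 41 and 6. None of these was a member. At the methods' threshold of 0.01 and 1.5-fold the methods' t-test gave 2706, 834, 2565 and 20 probes for OCT4, NANOG and SOX2 against mock and OCT4 against SOX2.

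The array numbers did not pair the samples (18 same-number correlations from -0.30 to 0.31, 4 of them over 0.1, and 3 of 12 arrays closest to their own number). With the number as a replicate block the array-wide counts were 3234 and 3551 with OCT4 silenced, 1735 and 1711 with NANOG silenced and 3086 and 3455 with SOX2 silenced, and no call on a member changed. Of the 84 member differences of at least 1.5-fold, normexp with offset 50 changed 26 by over 1.5 times on the log2 scale, the deposited means 6, the study-like processing 2 and median scaling 2. The members were ACTG2, ACTN3, CALD1 (NM_033138), CAP2, CNN1, EPB41L3, FHL1, KRT17, MYL4, MYL9, MYO1C, SPTB and TNNC1. On the linear scale the fold moved by over 1.5 times in 16 with offset 50 and in 1 (PDLIM1) with the deposited means. PDLIM1 was the member with such a move that is not named above. The cause was not tested. The planned test of every cytoskeleton symbol on the array, the tests of the regulator lists and the BeadChip as a block were not run, because symbols were used only for listed probes and no chip names were used here.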
